A study of Homo sapiens with 8 samples.

Results

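Levels of 10 genes of the S100 family of small calcium-binding proteins were described in 8 cancer cell samples. The genes were S100A2, S100A3, S100A4, S100A6, S100A8, S100A9, S100A10, S100A11, S100A14 and S100P. They were taken as every probe set whose only annotated symbol was 1 of these genes, which gave 11 of the 22277 probe sets on the array, and S100A8 alone had 2. The 10 genes were picked with their intensities on all 8 arrays already known, so their values stand as a description and carry no test.

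The study asked how gene expression differs when CD24, a small glycosylated protein of the cell surface, is lowered by short hairpin RNA (shRNA) or bound by antibody. Colo357, a human pancreatic cancer line, and HT29, a human colorectal cancer line, were each profiled after exposure to the anti-CD24 antibody SWA11, diluted 1 to 40, for 72 h, and each also without antibody. Among the 4 HT29-derived clones, 2 carried 2 vectors with an shRNA against CD24, 1 carried 1 such vector, and 1 carried an shRNA against GFP as a control. Every group had 1 array except the 2-vector clones, which had 1 array for each of 2 clones. Each clone is a single clonal line, so its own history cannot be told apart from its vector, and no clone without a vector was profiled here. The labels name no control antibody, and they do not say whether arrays of a line came from separate cultures. The values are linear MAS5 intensities, and log2 differences are of intensity plus 10, which understates differences of dim genes.

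S100 proteins are small EF-hand proteins that mostly pair up as dimers. On binding calcium they open a surface that grips a target protein inside the cell, and several are also released and act on receptors such as AGER (RAGE) and TLR4. Most of their genes stand side by side on the long arm of chromosome 1, next to the genes of epidermal differentiation, and many are strongly tissue-restricted in epithelia and in tumours.

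The targeted gene went with its labels. The brightest CD24 probe set read 171.7 and 595.5 in the 2-vector clones and 558 in the 1-vector clone, against 7362.5 in the GFP clone and 6425.1 in parental HT29. It read 4089.7 after antibody against 6425.1 without it in HT29, and 1848.9 against 2038.7 in Colo357. All 6 CD24 probe sets were lower after antibody in HT29, but in Colo357 the direction depended on the probe set. There the others read 1908.4, 1104, 664.6 and 472.7 with antibody against 1896.6, 742.1, 531.7 and 344.5 without it. The last read 340.5 against 474.6. The 3 CD24 shRNA clones lay below both controls with no overlap, a log2 difference of -4.12 with adjusted p = 0.208 by limma.

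Median intensity over the arrays lay between 32.4 and 63.1. The first 2-vector clone stood apart in its control probe sets: its 3′ to 5′ ratio for ACTB was 1.77, against 1.06 to 1.17 on the other arrays, and its 18S ribosomal control read 434.8, against 14.7 to 48. Differences of S100A2, S100A13 and S100A14 in the clones are therefore given with and without it. Of 6 pancreatic ductal markers tested between the lines, KRT7, MUC1 and MSLN were higher and SOX9 lower in Colo357, while KRT19 and TFF1 did not pass, and CLDN18 was dim on all arrays. KRT7, a duct keratin, read 5468.1 and 7502.6 in Colo357, against 38.8 to 193.3 in HT29 and its clones. SOX9 read 394.4 and 396.7 in Colo357, against 787.1 to 1362.4 there. Of 7 measured colon markers, KRT20 and LGALS4 were lower in Colo357. KRT20, a keratin, read 6.7 and 13.7 in Colo357, against 1117.1 to 4799.8 in HT29 and its clones. LGALS4, a colon galectin, read 139.6 and 274.9 in Colo357, against 4581.5 and 5625.5 in uncloned HT29, and only 32.5 to 682.2 in the 4 clones. VIL1 did not separate the lines, with 1123.5 and 780 in Colo357, against 439.3 and 1408.3 in uncloned HT29. CDX1, CDX2, CDH17 and GPA33 were at 68.8 or less on every array, so most of the colon list does not set HT29 apart here.

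Before the values, the stretches just upstream of 4 of the genes are shown as examples. S100A4, S100A8 and S100A9 differed between samples by 15.6-fold or more, and S100A6 was bright on all arrays. S100A2 and S100A14, which varied 52.4-fold and 33.9-fold, are not shown. Each line gives the 250 bases before the annotated start in RefSeq, 5′ to 3′ on the gene's own strand, in the GRCh38.p14 build. S100A4 is at chr1:153545807-153546056 on the minus strand, S100A6 at chr1:153535992-153536241 on the minus strand, S100A8 at chr1:153391074-153391323 on the minus strand and S100A9 at chr1:153357604-153357853 on the plus strand. S100A8 has 3 annotated starts, and the one shown is that with TATAAA nearest to it. Capitals mark TATAAA and the GC box GGGCGG, which can lie on either strand and then reads CCGCCC.
S100A4: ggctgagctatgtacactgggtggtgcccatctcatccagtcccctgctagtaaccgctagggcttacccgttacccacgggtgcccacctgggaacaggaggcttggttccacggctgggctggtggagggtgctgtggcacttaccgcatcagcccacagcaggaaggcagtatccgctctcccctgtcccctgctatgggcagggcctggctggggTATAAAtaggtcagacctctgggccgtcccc
S100A8: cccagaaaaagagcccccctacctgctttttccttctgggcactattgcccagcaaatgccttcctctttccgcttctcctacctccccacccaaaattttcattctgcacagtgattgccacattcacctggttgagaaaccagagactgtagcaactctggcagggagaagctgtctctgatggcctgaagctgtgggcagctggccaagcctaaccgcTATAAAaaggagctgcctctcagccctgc
S100A9: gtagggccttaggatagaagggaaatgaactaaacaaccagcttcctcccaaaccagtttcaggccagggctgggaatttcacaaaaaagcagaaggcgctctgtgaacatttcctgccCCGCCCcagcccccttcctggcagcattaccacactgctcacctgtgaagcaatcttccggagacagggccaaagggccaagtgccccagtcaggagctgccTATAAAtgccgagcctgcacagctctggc
S100A6: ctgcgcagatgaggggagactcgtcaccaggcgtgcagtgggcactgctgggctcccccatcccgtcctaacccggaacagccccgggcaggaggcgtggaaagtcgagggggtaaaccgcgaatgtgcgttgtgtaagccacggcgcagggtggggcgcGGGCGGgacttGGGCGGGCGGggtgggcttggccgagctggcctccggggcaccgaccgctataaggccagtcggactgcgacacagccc
TATAAA began 31 bases before the start in S100A4 and 29 bases before it in S100A8 and in S100A9. The S100A6 window held no TATAAA but 3 copies of GGGCGG, a pair of them overlapping. These motifs did not sort variable from bright genes. S100A2 and S100A14 had no TATAAA, while S100P, bright on all arrays, had it.

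All 10 genes had a promoter window, 13 windows in all, and 4 motifs were searched on both strands. TATAAA was present in 5 of the 13 windows, from 4 genes (S100A4, S100A8, S100A9 and S100P), against 10.7% of all 35116 windows in the table. GGGCGG was present in 5 of the 13, from 5 genes (S100A3, S100A6, S100A9, S100A10 and S100A11), against 42.6% of all windows. TGANTCA, the letters of an AP-1 site, was in 2 of the 13, upstream of S100A2 and S100A3, against 6.57% of all windows. CCAAT was in 2 of the 13, upstream of S100A3 and S100A8, against 32.0%. CpG counts differed widely among the genes. The S100A6 and S100A10 windows held 24 CpG dinucleotides each and the S100A11 window 15, against a median of 11 over all windows. S100A4 had 7, and S100A2, S100A3, S100A8, S100A9, S100A14 and S100P had 2 to 4. A match of letters describes these windows only, and no binding was measured.

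The genes fell into a steady and a variable set over the 8 arrays. Between its lowest and highest array S100A11 varied 1.77-fold, S100P 2.43-fold, S100A10 2.49-fold and S100A6 2.59-fold. S100A4 varied 148-fold, S100A2 52.4-fold, S100A14 33.9-fold and S100A8 15.6-fold. S100A9 varied 606-fold and S100A3 11.8-fold, both measured down to a few intensity units, where a ratio is imprecise. S100A8 and S100A9 exceeded their array's median on 3 of 8 arrays and S100A3 on 2 of 8, while the other 7 genes did so on all 8. The only replicate pair is that of the 2-vector clones, which differed from each other 1.24-fold for S100A6, 1.30-fold for S100A11, 1.33-fold for S100A10, 1.44-fold for S100A14, 1.60-fold for S100P, 2.04-fold for S100A4, 2.13-fold for S100A8, 3.64-fold for S100A3, 4.25-fold for S100A9 and 4.75-fold for S100A2. On the log2 scale of intensity plus 10 the gap was 0.31 for S100A6, 0.37 for S100A11, 0.41 for S100A10, 0.45 for S100A14, 0.67 for S100P, 0.70 for S100A9, 0.77 for S100A8, 0.97 for S100A4, 1.39 for S100A3 and 2.21 for S100A2. On that scale the gaps served as the yardstick of spread for each gene. Each gap includes the first 2-vector clone, the one with unusual control probe sets. A gap between 2 clones also does not measure spread within uncloned HT29 or Colo357, so it is a rough guide there. The added 10 makes the gap small for S100A8 and S100A9, which were dim in these clones.

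**Figure D1:**
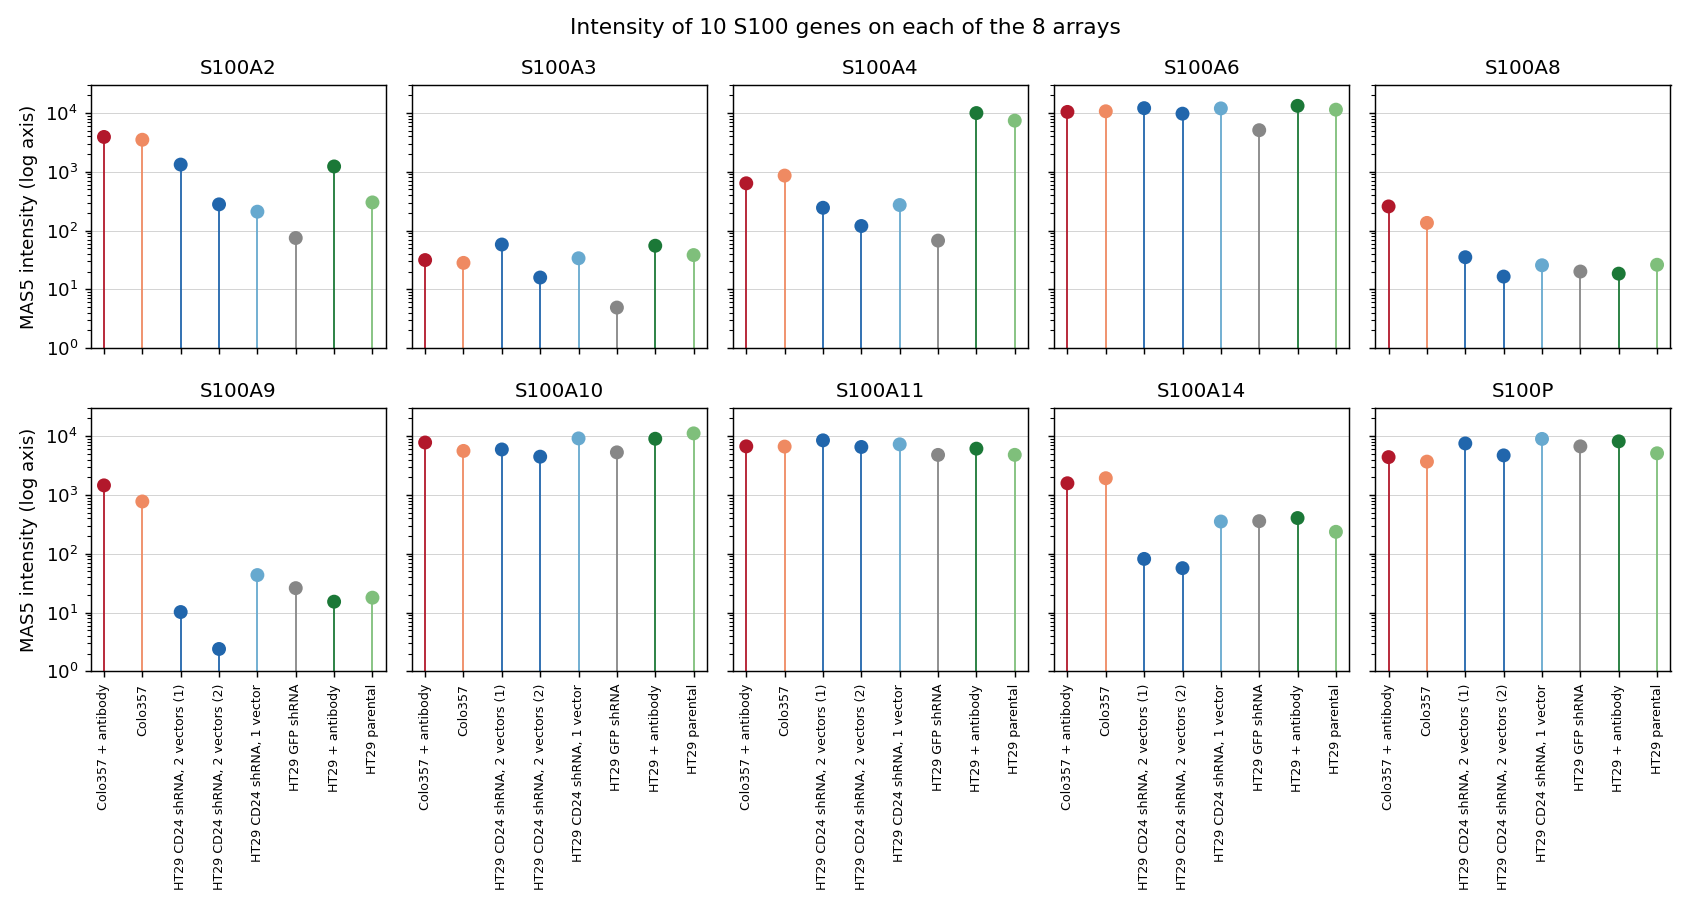
MAS5 intensity (log axis, arbitrary units) of the 10 S100 genes on each of the 8 arrays, 1 point per array, with the antibody-treated sample left of the untreated one and the clones left of parental HT29. S100A6, S100A10, S100A11 and S100P sit at 3690.1 or above on every array, while S100A4 reaches 7409 or more only in the 2 uncloned HT29 samples and S100A9 reaches 774.4 or more only in the 2 Colo357 samples.

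S100A4, also called metastasin, binds non-muscle myosin and is known for its link to cell motility and metastasis. Its probe set read 244.2 and 119.6 in the 2-vector clones, 271.9 in the 1-vector clone and 67.5 in the GFP clone, against 7409 in parental HT29. Antibody-treated HT29 was at 9972.9, and the 2 Colo357 samples were at 636.9 with antibody and 861.5 without. Thus uncloned HT29 was high, Colo357 intermediate and all 4 clones low, and these 3 sets of samples did not overlap.

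The mean log2 value of S100A4 was 7.36 ± 0.87 in the 4 clones (SD, n = 4) and 12.86 on the parental array, a log2 difference of -5.50 or 45.3-fold lower. In the GFP clone alone, which carries no CD24 shRNA, the log2 difference from parental HT29 was -6.58. In that clone S100A4 read lower than in any of the 3 CD24 shRNA clones. The comparison of the CD24 shRNA clones with both controls therefore joined 2 controls that lay 95.7-fold apart. Its log2 difference was -1.85 with both controls, 1.44 against the GFP clone alone and -5.14 against parental HT29 alone. All 4 clones were low in S100A4, the one without a CD24 shRNA included. In these bulk samples, fewer cells with S100A4 and less S100A4 RNA per cell cannot be told apart. Fibroblasts are a known source of S100A4 in tissue. The summed intensity of 6 fibroblast markers was 141.4 to 190.8 in the clones, 243.2 and 249.4 in Colo357 and 117 to 132.1 in uncloned HT29. COL1A1, the brightest of them, read 66.7 to 113.9 on all arrays. The part of such cells in the S100A4 values was not tested.

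Of 6776 genes outside the family with a mean above that of the median probe set, KLK11, SNCG and GRAMD1B were the closest to S100A4 by root-mean-square difference of centred log2 values over the 8 arrays. KLK11, a secreted serine protease, differed by 0.69, SNCG, a synuclein, by 0.89 and GRAMD1B, a membrane sterol transporter, by 1.18, on a scale where S100A4's own SD was 2.40. KLK11 read 28.9 and 31.3 in the 2-vector clones, 15.2 in the 1-vector clone and 28.5 in the GFP clone, against 1285.9 in parental HT29. It was at 135 and 111.1 in Colo357 and 2341.4 in antibody-treated HT29. CDH1, which encodes the adhesion protein E-cadherin, was at 1.4 to 15.4 in the 4 clones, against 2172.8 in parental HT29 and 1161.5 and 1349.6 in Colo357. The other general epithelium markers stayed bright in the clones. KRT8 read 11018.9 to 14029.2 there against 9108.5 in parental HT29, and KRT18 14640.6 to 16577.6 against 14767.1. EPCAM was lower, at 1307.8 to 3546.3 against 4027.6.

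S100A8 and S100A9 form calprotectin, the heterodimer that binds calcium, zinc and manganese and is abundant in neutrophils and monocytes. S100A9 read 1455.5 and 774.4 in Colo357 with and without antibody, against 15.3 and 17.9 in HT29 with and without it. In the clones it read 26 (GFP), 43.4 (1 vector) and 10.2 and 2.4 (2 vectors). The log2 difference of Colo357 from HT29 was 5.33, and every Colo357 value lay above every HT29-derived value.

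S100A8 followed the same split at its brighter probe set, with 257.4 and 135 in Colo357 with and without antibody, against 18.5 and 26.2 in HT29 with and without it. The clones read 16.5 to 35.2. The log2 difference between the lines was 2.62, and 2.00 on the untreated arrays alone. The other S100A8 probe set read 0.4 to 2 on all 8 arrays, so with both probe sets averaged the log2 difference was 1.31. Both calprotectin genes were at 135 or more in Colo357 and at 43.4 or less in every HT29-derived sample.

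Myeloid cells are the usual source of both genes in tissue. The summed intensity of 7 myeloid markers was 83.6 and 138.9 in Colo357, against 3837.7 to 5541.8 in HT29 and its clones, where lysozyme (LYZ) alone made up to 5402.3 of it. The pan-leukocyte gene PTPRC was at 24.2 or less on every array. Squamous epithelium is another source. KRT5, a basal keratin, read 3640.3 and 2568.8 in Colo357, against 6.8 or less in HT29 and its clones, whereas KRT14 and IVL were at 28.8 or less on all arrays. The part of a squamous-type programme in these values was not tested.

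The genes closest to S100A9 by the same measure were SPP1 (0.57), the secreted phosphoprotein osteopontin, STOM (0.59), a membrane scaffold protein, and C1R (0.68), a complement protease, against an SD of 2.39 for S100A9 itself. STOM read 1204.8 and 1194.8 in Colo357 with and without antibody, against 15.1 to 26.3 in the HT29-derived samples.

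S100A2, a mainly nuclear member that binds p53 and is typical of basal and squamous epithelium, was also highest in Colo357. It read 3911.5 and 3505.6 in Colo357 with and without antibody, against 1231.6 and 301.1 in HT29 with and without it. The clones spread widely, with 1325.3 and 279.1 for 2 vectors, 209.5 for 1 vector and 74.7 for the GFP shRNA. Colo357 exceeded all HT29-derived samples, while clones and uncloned HT29 overlapped.

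The log2 difference of S100A2 was 2.58 between the lines and 2.00 for antibody in HT29. It was 0.16 for antibody in Colo357. Only the difference between the lines exceeded the gap of 2.21 between the 2-vector clones. The difference of the CD24 shRNA clones from both controls was 1.44, and 0.63 without the first 2-vector clone. For 2 vectors against 1 it was 1.50 with both clones, 0.40 from the second clone and 2.60 from the first, so 1 array carried these values. COL4A2 (0.72), a basement membrane collagen chain, IER5 (0.81), an immediate-early gene, and SYNGR3 (0.90), a synaptic vesicle protein, lay closest to S100A2, whose SD was 1.88.

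S100A14, an epithelial member reported to act through RAGE and to influence p53, separated both the lines and the clones. It read 1581.4 and 1926.9 in Colo357 with and without antibody, against 404.9 and 236 in HT29 with and without it. It read 81.7 and 56.9 in the 2-vector clones, 353.3 in the 1-vector clone and 358.4 in the GFP clone. Both 2-vector clones lay below every other sample, and the 1-vector clone matched the GFP clone within the 1.44-fold gap of the pair.

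The log2 difference of S100A14 was 2.46 for Colo357 over HT29 and -2.21 for 2 vectors over 1. The difference between 2 vectors and 1 was -2.44 from the second 2-vector clone and -1.99 from the first, so it did not rest on the clone with the unusual controls. Against both controls the CD24 shRNA clones differed by -1.20, and by -0.95 without the first 2-vector clone. Of the colon markers, LGALS4 read 53.6 and 32.5 in the 2-vector clones, against 682.2 in the 1-vector clone. VIL1 was also lower, at 27.9 and 25 against 248.5, whereas KRT20 was at 4723 and 4799.8 against 4016. In Colo357, where S100A14 was highest, LGALS4 read 139.6 and 274.9, VIL1 1123.5 and 780, and KRT20 6.7 and 13.7. In the GFP clone LGALS4 read 584.5 against 4581.5 in parental HT29. VIL1 read 105.5 against 439.3 there, and KRT20 2761.4 against 1117.1. The part of these markers in the S100A14 result was not tested. SULT1A1 (0.62), a sulfotransferase, ALDOC (0.67), a glycolytic aldolase, and FUT3 (0.67), the Lewis fucosyltransferase, lay closest to S100A14, whose SD was 1.61.

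S100A3, a cysteine-rich member best known from the hair cuticle, was dim throughout. It read 55.2 and 38.3 in HT29 with and without antibody, and 31.5 and 28.2 in Colo357 with and without it. The clones read 57.9 and 15.9 (2 vectors), 33.8 (1 vector) and 4.9 (GFP shRNA). The GFP clone was lowest, and the remaining samples lay within the 3.64-fold gap between the 2-vector clones.

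The remaining 4 genes were bright on all arrays. S100A10 (p11), which does not bind calcium and joins annexin A2 in a tetramer, read 5941.9 and 4480.3 in the 2-vector clones, 9159.5 in the 1-vector clone and 5303.4 in the GFP clone, against 11155.1 in parental HT29. In HT29 it read 9038 with antibody, and in Colo357 7799.4 with antibody and 5611.7 without. All 4 clones lay below parental HT29, the 1-vector clone by less than the pair's gap. Its partner ANXA2 stayed between 6561.9 and 8802 on all arrays.

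S100A6 (calcyclin), which binds CACYBP, a component of a ubiquitin ligase, read 12084.7 and 9734 in the 2-vector clones, 11966.7 in the 1-vector clone and 5098.3 in the GFP clone, against 11386 in parental HT29. It read 13225.4 in antibody-treated HT29, and 10426.5 and 10690.1 in Colo357 with and without antibody. The GFP clone stood alone at the low end, with a log2 difference of -1.16 from parental HT29. S100A11 (calgizzarin), a partner of annexin A1, read 8490.2 and 6551.5 in the 2-vector clones, 7262.5 in the 1-vector clone and 4801 in the GFP clone, against 4811 in parental HT29. With and without antibody it read 6709.9 and 6650.1 in Colo357, and 6131.5 with antibody in HT29. The 3 CD24 shRNA clones lay above both controls, by 0.62 on the log2 scale, beyond the 0.37 between the 2-vector clones. The first 2-vector clone, with its unusual controls, was the highest of them and is part of that gap.

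S100P lies apart from the others, on chromosome 4. The protein was first found in placenta, activates ezrin and is known for high levels in pancreatic cancer. Its probe set read 4401.7 and 3690.1 in Colo357 with and without antibody, against 8162.8 and 5116.5 in HT29 with and without it, so the pancreatic line was the lower one, by 0.68 on the log2 scale. The clones read 7521.3 and 4710.2 (2 vectors), 8979.4 (1 vector) and 6707.4 (GFP shRNA), which overlapped uncloned HT29.

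Counted over the 10 genes, Colo357 differed from HT29 by 2-fold or more in 5. S100A2, S100A8, S100A9 and S100A14 were higher and S100A4 was lower, and 9 of the 10 genes lay above the filter on dim genes, all but S100A3. S100A8 and S100A9 read 26.2 or less in HT29 and passed the filter through Colo357. In this comparison 22.1% of the 6787 genes tested were at 2-fold or more, 12.2% higher and 9.86% lower. The median log2 difference was 0.04 over the 10 genes and 0.01 over all measured genes. For 7 of the 10 genes the difference exceeded that between the 2-vector clones. The 5 named genes with S100A10 and S100P made up these 7, while S100A3, S100A6 and S100A11 did not exceed it. S100P only just did, at -0.68 against a gap of 0.67. Here and below, the share of all genes beyond such a gap was not counted. Since the genes were picked with these intensities known, nothing further is read from the counts.

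The 4 shRNA clones differed from parental HT29 by 2-fold or more in 1 gene, S100A4, against a background of 25.5% of 6756 genes. The GFP clone alone differed in 5, all lower (S100A2, S100A3, S100A4, S100A6 and S100A10), against 21.5% of 6700 genes, of which 7.06% were lower and 14.4% higher. The CD24 shRNA clones differed from both controls in 3 genes, S100A2 higher and S100A4 and S100A14 lower, against 23.9% of 6756 genes, 7.15% higher and 16.7% lower. Without the first 2-vector clone only S100A4 was at 2-fold or more in that comparison. The 2-vector clones differed from the 1-vector clone in 3 genes, S100A2 higher and S100A9 and S100A14 lower, against 9.58% of 6786 genes, 6.10% higher and 3.48% lower. In these clone comparisons 7 of the 10 genes lay above the filter, all but S100A3, S100A8 and S100A9, so the calls of S100A3 and S100A9 are those of dim genes. These comparisons share arrays, parental HT29 and the GFP clone among them, so their values are not independent.

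Antibody differences were below 2-fold for most of the 10 genes. In HT29, S100A2 alone reached 2-fold, with a log2 difference of 2.00, against 12.3% of 6692 genes, 5.04% higher and 7.31% lower, and only S100A14, at 0.75, exceeded the gap between the 2-vector clones. In Colo357 none reached 2-fold, against 23.2% of 6829 genes, although S100A8, S100A9 and S100A10 exceeded that log2 gap at 0.88, 0.90 and 0.47. As plain ratios of intensity, S100A8 at 1.91-fold and S100A9 at 1.88-fold stayed within the gap of the pair, and S100A10 at 1.39-fold did not. Over both lines S100A2 was at 1.08, and the remaining genes were at 0.46 or less, against 12.7% of 6787 genes at 2-fold or more. No gene's mean over both lines exceeded the gap between the 2-vector clones. With 1 treated and 1 untreated array in each line, no replicate check exists within a line.

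**Figure D2:**
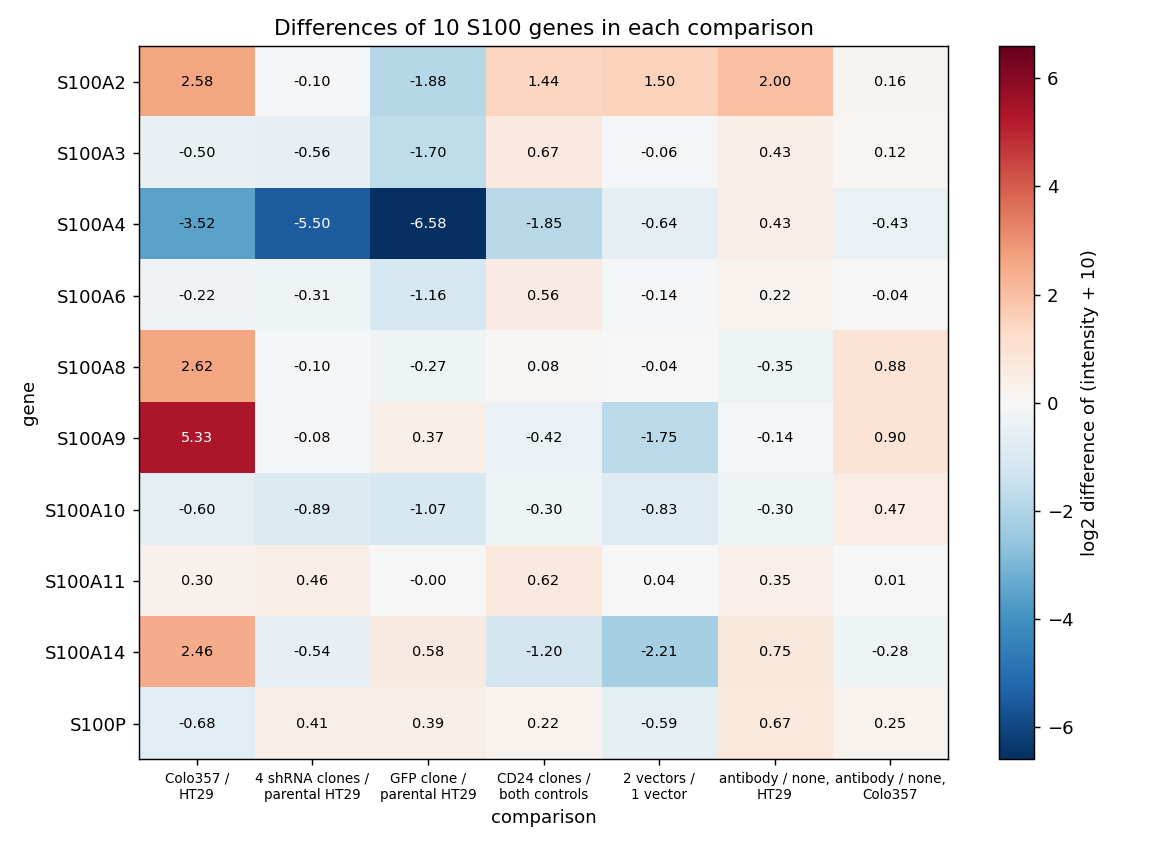
Log2 difference of intensity plus 10 for each of the 10 S100 genes (vertical axis) in 7 comparisons (horizontal axis), with the value printed in each cell, red for higher and blue for lower in the first-named samples. S100A4 is at -5.50 in the 4 shRNA clones and -6.58 in the GFP clone against parental HT29, S100A9 is at 5.33 in Colo357 against HT29, and S100A6, S100A10, S100A11 and S100P stay between -1.16 and 0.67.

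All but S100P lie in 1 stretch of chromosome 1. In RefSeq order, 63 protein-coding genes run from S100A10 to S100A1, and 28 of them had a value. S100A6, S100A5, S100A4, S100A3 and S100A2 follow each other with no other protein-coding gene between them, yet their differences varied in size. In the GFP clone against parental HT29 each of them was lower. S100A6 was at -1.16, S100A5 at -1.59, S100A4 at -6.58, S100A3 at -1.70 and S100A2 at -1.88. In the 4 clones against parental HT29, S100A4 was at -5.50 and S100A5 at -1.82, while S100A3 was at -0.56, S100A6 at -0.31 and S100A2 at -0.10. That S100A2 mean covered clones reading from 74.7 to 1325.3, the highest being the first 2-vector clone. Between Colo357 and HT29, S100A2 at 2.58 and S100A4 at -3.52 lay in opposite directions, with S100A3 between them at -0.50.

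S100A5 stands next to S100A4 and was not among the 10 genes. Its probe set read 5.5 and 14.5 in the 2-vector clones, 22.1 in the 1-vector clone and 18.3 in the GFP clone, against 75.4 in parental HT29. It read 22.4 and 29.1 in Colo357 with and without antibody, against 97.7 and 75.4 in HT29 with and without it. This was the split seen for S100A4 at its high end, where uncloned HT29 exceeded all other samples. Colo357 was lower than HT29, by a log2 difference of -1.43 ± 0.34 (SE) with adjusted p = 0.0133 by limma, and 6 of 7 alternative settings kept the call. S100A5 was dim in Colo357 and passed the filter on dim genes through HT29. Signal shared between these neighbouring genes was not tested.

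Of the 19 measured genes of the stretch that were not among the 10, 3 lay above the filter over all 8 arrays. SPRR1B did so through the CD24 shRNA clones, and read 7.8 to 48.6 on the other arrays. SPRR1B and SPRR1A, small proline-rich proteins of the cornified envelope, had log2 differences of 4.17 and 2.37 in the 4 clones against parental HT29, and S100A13 had 1.66. Without the first 2-vector clone these were 3.11, 1.45 and 1.48. None of the 3 was at 2-fold between Colo357 and HT29, but SPRR1B was dim in both, at 48.6 or less. SPRR1B read 3345.2 and 826.7 in the 2-vector clones, 149.5 in the 1-vector clone and 30.1 in the GFP clone, against 48.6 in antibody-treated HT29 and 10.3 in parental HT29. SPRR1A read 2429.2 and 492.3 in the 2-vector clones, 135.8 in the 1-vector clone and 81.8 in the GFP clone, against 85.2 in antibody-treated HT29 and 59 in parental HT29. For both genes the GFP clone lay below antibody-treated HT29 and the first 2-vector clone was highest.

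**Figure D3:**
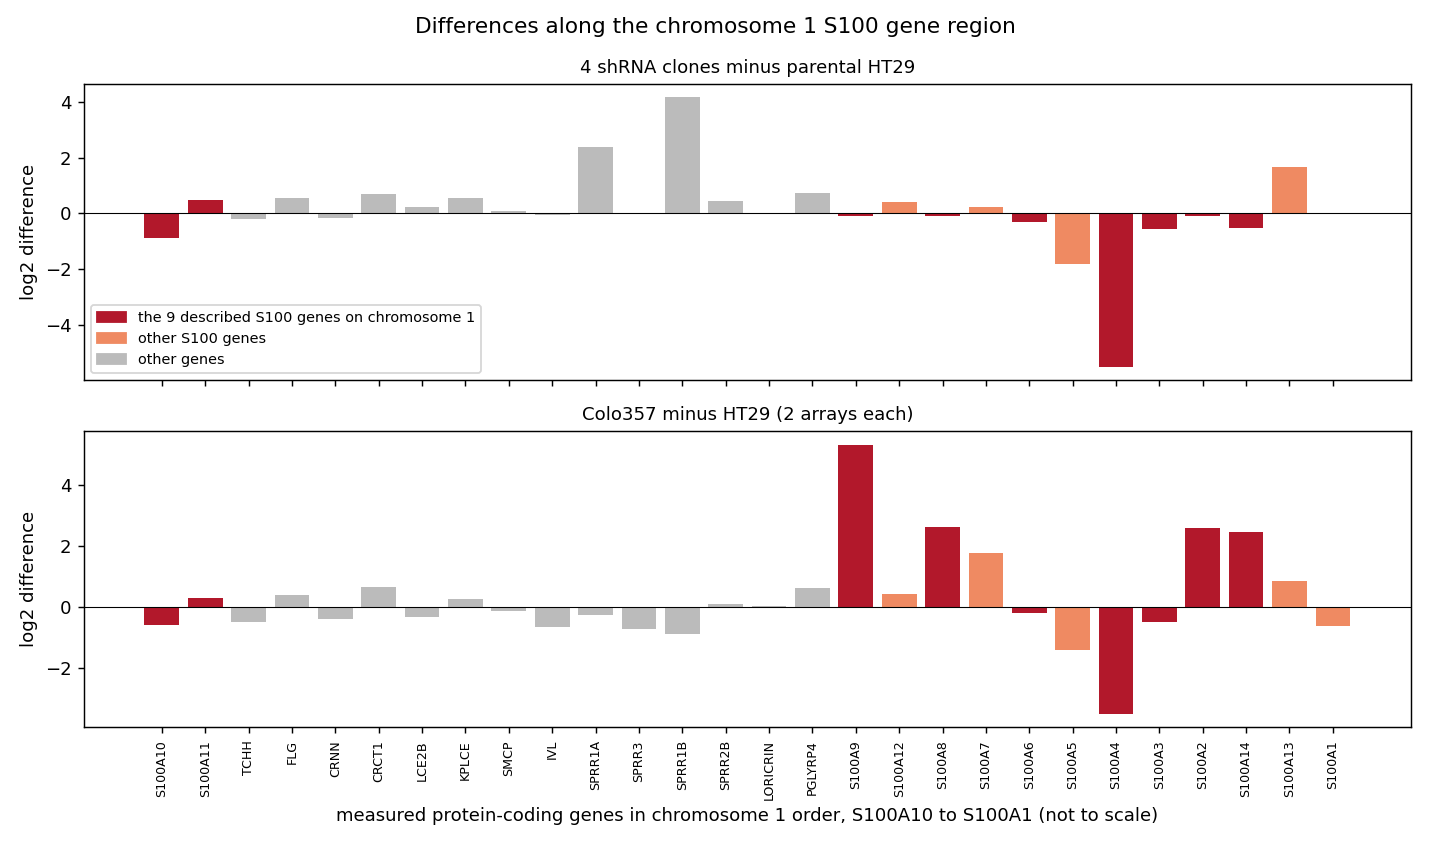
Log2 difference (vertical axis) of the 28 measured protein-coding genes from S100A10 to S100A1 in chromosome order (horizontal axis, not to scale) for the 4 shRNA clones minus parental HT29 (upper panel) and Colo357 minus HT29 (lower panel). Red bars are the 9 described genes on chromosome 1, orange bars other S100 genes and grey bars other genes. In the upper panel S100A4 is at -5.50 and SPRR1B at 4.17, and in the lower panel S100A9 at 5.33 and S100A4 at -3.52 lie farthest from 0.

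Among 10 further listed members of the family, 7 were on the array. S100A13, which takes part in the unconventional release of FGF1 and interleukin-1 alpha, lay above the filter in every comparison. Its brighter probe set read 2696.1 and 1558.6 in the 2-vector clones and 2553.7 in the 1-vector clone, against 1148.2 in the GFP clone and 588 in parental HT29. In Colo357 it read 1963.1 and 1199.2 with and without antibody, and in antibody-treated HT29 1194.6. The CD24 shRNA clones lay above both controls, with a log2 difference of 1.41 ± 0.45 (SE) and adjusted p = 0.213 by limma, which did not pass. Without the first 2-vector clone the difference was 1.27. S100A7 (psoriasin) read 26.7 and 33.2 in Colo357, against 1.1 to 6.7 in the HT29-derived samples. S100A1, S100A12, S100B and S100G were at 31.9 or less on every array. Of the fused-type S100 genes, large epidermal proteins such as filaggrin, 3 of 6 were measured and none lay above the filter.

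Of 20 listed intracellular partners of S100 proteins, 16 were tested between Colo357 and HT29. TPM1, a tropomyosin, was higher by 1.56 (adjusted p = 0.00835, limma) and FKBP4, a co-chaperone, lower by a log2 difference of -1.11 (adjusted p = 0.0459, limma), with a list median of -0.04 against -0.03 over all genes. Over all genes 19.5% passed in this comparison, against 2 of the 16 here. FKBP4 passed under 1 of 7 alternative settings and TPM1 under all 7. No partner passed in the clones or with the antibody. In the CD24 shRNA clones against both controls, ANXA1, the partner of S100A11, was at -1.91 ± 0.98 (SE, adjusted p = 0.304, limma) and IQGAP1, a scaffold bound by S100P, at -1.53 ± 0.64 (SE, adjusted p = 0.242, limma). The list median was -0.20 there, against 0.04 over all genes. CACYBP, the partner of S100A6, read 605.1 and 779 in the 2-vector clones, 532.2 in the 1-vector clone and 699.5 in the GFP clone, against 1826.1 in parental HT29. All 4 clones lay below the uncloned and Colo357 samples, but the log2 difference of -1.48 ± 0.43 (SE) against parental HT29 had adjusted p = 0.245 by limma. EZR, a partner of S100P, read 3908.9 with antibody against 1738.3 without it in Colo357. IQGAP1 went the other way there, at 442.3 against 1067.3. Over both lines neither passed, with EZR at 0.93 (adjusted p = 0.13, limma) and IQGAP1 at -0.98 (adjusted p = 0.117, limma).

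Of 11 receptors and extracellular partners, 4 were tested between the lines. PLAU, the urokinase that activates plasminogen, was higher in Colo357 by 5.02 (adjusted p = 8.45e-05, limma) and PLAT, the tissue-type activator, by 3.58 (adjusted p = 2.46e-05, limma). Cell-surface S100A10 is known to bind both plasminogen and PLAT. Both read 30 or less in HT29 and passed the filter through Colo357. The median over all 11 measured genes of the list was 0.90, against 0.01 over all measured genes. With the antibody, PLAUR, the urokinase receptor, read 735.8 against 277.6 in HT29 and 1774.3 against 447.8 in Colo357. It rose by 1.67 ± 0.33 over both lines (SE, adjusted p = 0.0329, limma), where 3.58% of all genes passed. The median over all 11 measured genes of the list was 0.12 there, against 0.02 over all measured genes. The call held under 4 of 9 alternative settings, with adjusted p from 0.0232 to 0.804 by limma. PLAU was at 2.14 and PLAT at 1.07, with adjusted p = 0.0582 and 0.092 by limma. The receptors AGER and TLR4 were dim, at 3.3 to 31.6 and 6.5 to 93.6 on the 8 arrays.

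Of 15 other EF-hand genes, 11 were tested between the lines and 3 passed. CALB1 (calbindin) was higher in Colo357 by 5.51 (adjusted p = 1.7e-06, limma) and SRI (sorcin) by 1.39 (adjusted p = 0.0161, limma), while CALB2 (calretinin) was lower with a log2 difference of -2.61 (adjusted p = 0.000248, limma). CALB1 and CALB2 passed under all 7 alternative settings and SRI under 5. CALB1 read 9.7 or less in HT29 and passed the filter through Colo357. The 3 of 11 stand beside 19.5% of all genes tested, and the list median of -0.06 beside -0.03 over all genes tested. No gene of this list passed in the clones or with the antibody, and RCN2, a reticulocalbin, was at -1.25 in the CD24 shRNA clones against both controls with adjusted p = 0.242 by limma. Over all genes, 0 of 6756 passed by limma in that clone comparison, although 1341 had an unadjusted p under 0.05, and 14 of 6756, or 0.207%, passed for the 4 clones against parental HT29.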

How the data were processed

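RNA of 8 samples was hybridised to Affymetrix human GeneChip arrays. The authors deposited 1 linear intensity per probe set and array, made with MAS5, per the submitters' processing notes. Its version, the background handling and detection calls are not stated in these sources, so nothing was called absent. Each array had a mean of 249.9 after trimming 2% from each end, so no further scaling was applied. Of 22277 probe sets, 62 were controls, 19064 had 1 gene symbol, 1043 several and 2108 none. Symbols were updated for 19052 through Entrez IDs in the RefSeq gene table of GRCh38.p14.

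Intensities were taken as log2(intensity + 10). A gene was represented by its brightest probe set with 1 symbol. A comparison tested genes whose mean log2 value over its arrays exceeded that of the median non-control probe set. Differences were fitted over all genes with limma 3.58.1 in R 4.3.3 (lmFit, eBayes, two-sided), adjusted by Benjamini-Hochberg at 0.05. The 3 CD24 shRNA clones were set against parental HT29 and the GFP clone, and the 4 clones against parental HT29, with 3 residual degrees of freedom each. Line and antibody were fitted together on 4 arrays, each as a block for the other, with 1 residual degree of freedom. Comparisons of 1 array with 1 array, and 2 vectors against 1, had no test, and differences of 2-fold or more were counted. The fits were tested on simulated data. P-values measure only the spread between these samples, which may be technical, and the small number of arrays limits all precision.

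The genes named are the 10 S100 genes, CD24, lists of S100 family, partner, receptor, EF-hand and cell type marker genes, and the 3 genes most like each of the 4 S100 genes with the widest log2 range. The genes and lists were chosen with earlier results of these data known. Of the 110 listed genes, 96 had a probe set. CpG dinucleotides and motifs were counted with Python 3.11.15 in the 250 bases before each RefSeq start. Alternatives were other pseudocounts, quantile normalization, other probe set rules and filters, other arrays in a fit, and leaving out each array.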

Additional observations from a re-analysis of the deposited data

Results flagged for a closer look

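With 1 treated and 1 untreated array in each line, 6 of the 10 S100 genes had an antibody difference of opposite sign in HT29 and Colo357. The share of all genes with opposite signs was not counted, so nothing is read from this count. The log2 difference in HT29 minus that in Colo357 was 0.86 for S100A4 (0.43 in HT29 and -0.43 in Colo357) and 0.25 for S100A6 (0.22 and -0.04). It was 1.04 for S100A14 (0.75 in HT29 and -0.28 in Colo357). For calprotectin the sign was turned, at -1.23 for S100A8 (-0.35 in HT29 and 0.88 in Colo357) and -1.04 for S100A9 (-0.14 and 0.90). S100A8 and S100A9 were near the floor in HT29, at 15.3 to 26.2. S100A10 gave -0.78 (-0.30 in HT29 and 0.47 in Colo357). The difference between the lines was not tested for any of these genes, and for S100A4 and S100A6 it was smaller than the 0.97 and 0.31 between the 2-vector clones. That gap is between single arrays, whereas each value here joins both arrays of both lines. A value beyond the gap is therefore not read as a difference between the lines.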

How the results depend on the processing

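Of 670 recomputed log2 differences of the 10 genes, 649 moved by less than 1 SD of the 3 CD24 shRNA clones. The sign changed in 24. In 1 of these the reported difference was 2-fold or more, and in the others its log2 size was 0.67 or less. That 1 was S100A4 in the CD24 shRNA clones, at 1.44 without parental HT29, against -1.85 with both controls and -5.14 without the GFP clone. Leaving out arrays in turn gave 1 to 5 S100 genes at 2-fold or more in the CD24 shRNA clones against both controls (3 with all arrays) and 1 to 2 in the 4 clones against parental HT29 (1 with all arrays). With parental and antibody-treated HT29 joined as uncloned HT29 that count was 2. Quantile normalization gave 1 S100 gene at 2-fold for antibody in Colo357, against 0, and it put the median log2 difference of all genes at 0.18, against 0.04, in the CD24 shRNA clones against both controls, and at -0.05, against 0.09, in the GFP clone against parental HT29.

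Counts over all genes depended far more on the settings. The 4 clones against parental HT29 gave 14 genes, 29 with a pseudocount of 1, 9 without a filter, 232 with the joined HT29 pair, and 0 to 85 with single clones left out: 85 without the GFP clone and 0 without any 1 of the 3 CD24 shRNA clones. The CD24 shRNA clones against both controls gave 0 genes, and 0 to 587 with arrays left out, namely 85 without the GFP clone and 587 without the second 2-vector clone. The antibody over both lines gave 243 genes, 137 with a pseudocount of 1, 68 with probe sets averaged, 29 with a filter on mean intensity (chosen after seeing the data), 3 in a fit of all 8 arrays, and 0 with quantile normalization, without a filter, or with no replicate block, that is without the line as a block. At an unadjusted p under 0.05 these last gave 1418, 1812 and 384 genes by limma. Colo357 against HT29 gave 1326 genes and 1014 to 1462 under its alternatives. Dim probe sets, such as S100A3 in the GFP clone and S100A9 in HT29 and its clones, have imprecise ratios.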
